A study of Drosophila melanogaster with 2 samples.

Results

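The 51 genes described here encode the transcription factors and signals that lay out the body plan of the Drosophila melanogaster embryo. They were chosen by name, and each was given the peaks whose summit lay within 500 bp of one of its transcription start sites (TSSs) or inside its span, out of 13945 protein-coding genes. The sites came from ChIP-seq of schlank, a ceramide synthase that also carries a homeodomain. There was 1 group of 2 biological replicates, whole embryos of mixed sex aged 0 to 24 h. All came from 1 transgenic line in which schlank is stably made as a fusion with C-terminal GFP. Both samples carry the antibody label schlank, but their free-text description calls them input controls, and the antibody label was followed here. No condition was compared with another, and the only reference is the set of all protein-coding genes. The sources used here do not say what drives the tagged protein or how many embryos made up a replicate. No read counts were used, so the depth behind each value is unknown.

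Segmentation of the fly embryo runs as a cascade. Maternal factors such as bcd set up gradients that switch on gap genes, these place the stripes of pair-rule genes, and segment polarity genes then fix the borders within each segment. Hox genes give segments their identity, and a separate cascade led by the maternal factor dl patterns the embryo from back to belly. Many of these genes encode homeodomain proteins, and many are controlled by elements in introns or at distant enhancers.

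Of the 51 patterning genes, 8 had a thresholded peak: cad, hb, Antp, dl, sog, hth, Dll and tin. That was 15.7% of them, against 16.7% of all 13945 protein-coding genes, so the share of marked genes was close to the background. The thresholded set is the 2790 peaks that the authors deposited as their optimal IDR set. A peak in it need not have a candidate in both replicates within 200 bp. These 8 genes held 10 summits of the set, 4 in promoter windows and 6 in introns. The strongest had a pooled signal, the authors' own peak strength, of 370 at cad, rank 400 of 2790, and the weakest 131 at hth, rank 2485. The median of the 10 was 178, against 183 for the whole set, and the maximum of the set was 2915. Pair-rule and segment polarity genes had none among 13, the Hox genes 1 of 8, maternal and gap genes 2 of 12, and dorsoventral genes 2 of 10. The cofactor, appendage and mesoderm genes had 3 of 8.

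The DNA under 7 of these 10 summits is shown with the searched sequences marked. Genes were counted by the position of the summit alone, not by sequence. Each line gives the gene, the position on dm6 and the plus strand read 5′ to 3′, centred on the summit and credited to the RefSeq copy of the Release 6 genome. Capitals mark matches, on either strand, to a searched sequence. The searched sequences were the homeodomain core TAATTA, a related homeodomain core spelled TAATGA, a core of the kind bound by Abd-B spelled TTTATG, and the repeat of the GAGA factor spelled GAGAGAG. The others were the Dref site TATCGATA, a Zelda-type sequence spelled CAGGTA, one E-box spelled CAGCTG, another E-box spelled CACGTG, and the TATA-type sequence TATAAA. Matches to the Abd-B-type core and to the TATA-type sequence cannot overlap each other. A TATA-type match can overlap its own reverse complement, as at hth and tin, and sequences that begin or end in the same letters can share those letters.
cad chr2L:20780860-20781060: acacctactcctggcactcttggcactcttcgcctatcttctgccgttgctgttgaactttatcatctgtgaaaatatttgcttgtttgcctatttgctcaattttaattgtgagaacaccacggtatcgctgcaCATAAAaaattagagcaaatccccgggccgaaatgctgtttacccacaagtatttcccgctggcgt
hb chr3R:8694224-8694424: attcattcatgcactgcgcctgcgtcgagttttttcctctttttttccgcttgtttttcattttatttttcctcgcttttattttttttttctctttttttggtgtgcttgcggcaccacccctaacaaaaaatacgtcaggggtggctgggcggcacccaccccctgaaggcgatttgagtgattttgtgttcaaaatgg
sog summit of signal 184, chrX:15619437-15619637: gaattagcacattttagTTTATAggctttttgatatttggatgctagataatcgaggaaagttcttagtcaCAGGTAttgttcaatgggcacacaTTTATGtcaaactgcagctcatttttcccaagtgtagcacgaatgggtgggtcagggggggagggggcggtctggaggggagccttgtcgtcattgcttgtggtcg
sog summit of signal 183, chrX:15622959-15623159: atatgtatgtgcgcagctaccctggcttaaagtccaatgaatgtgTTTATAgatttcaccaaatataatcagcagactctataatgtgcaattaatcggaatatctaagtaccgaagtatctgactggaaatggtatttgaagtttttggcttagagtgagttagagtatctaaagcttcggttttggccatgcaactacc
hth chr3R:10597690-10597890: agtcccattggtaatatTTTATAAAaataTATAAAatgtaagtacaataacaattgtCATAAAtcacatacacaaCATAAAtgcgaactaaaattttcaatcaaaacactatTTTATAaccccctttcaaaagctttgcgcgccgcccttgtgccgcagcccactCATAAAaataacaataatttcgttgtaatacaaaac
Antp chr3R:6914461-6914661: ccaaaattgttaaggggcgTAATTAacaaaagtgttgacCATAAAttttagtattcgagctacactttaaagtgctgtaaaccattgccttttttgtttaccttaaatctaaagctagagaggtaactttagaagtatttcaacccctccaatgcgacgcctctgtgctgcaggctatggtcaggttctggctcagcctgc
tin chr3R:21378678-21378878: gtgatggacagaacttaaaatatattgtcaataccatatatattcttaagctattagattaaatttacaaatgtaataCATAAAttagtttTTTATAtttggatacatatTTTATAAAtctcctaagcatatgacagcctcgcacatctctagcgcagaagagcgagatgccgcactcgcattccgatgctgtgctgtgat

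The windows varied widely in composition. In the 100 bp to each side of the summit, GC content was 30.8% at the stronger hth site and 67.2% at Dll, with a mean of 42.8% ± 10.1 (SD, 10 summits). It was 38.5% ± 7.35 over all 2790 thresholded summits. TAATTA lay under 1 of the 10 summits, that of Antp, against 14.6% of all thresholded summits, and TAATGA under none, against 12.7%. With none of 10, shares of up to 30.8% are possible (exact 95% binomial interval, which covers counting error only). TTTATG lay under 6 of the 10, at cad, sog, both hth sites, Antp and tin (exact 95% interval 26.2% to 87.8%), against 22.2% of the 2790. That interval treats the 10 summits as independent, although sog and hth each gave more than 1 of them. Among all 219 pooled candidates at patterning genes 25.1% held TTTATG, against 21.1% of the 30000 pooled candidates. TATAAA lay under 4 of the 10, against 29.6%, and CAGGTA under 1, against 4.55%. The GAGA repeat, the Dref site and the 2 E-boxes had no match in the 10 windows, against 5.38%, 3.26%, 10.2% (the first E-box) and 2.76% (the second) of all thresholded summits. These are letters in a window for 9 sequences searched, and no test was made of them.

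**Figure D1:**
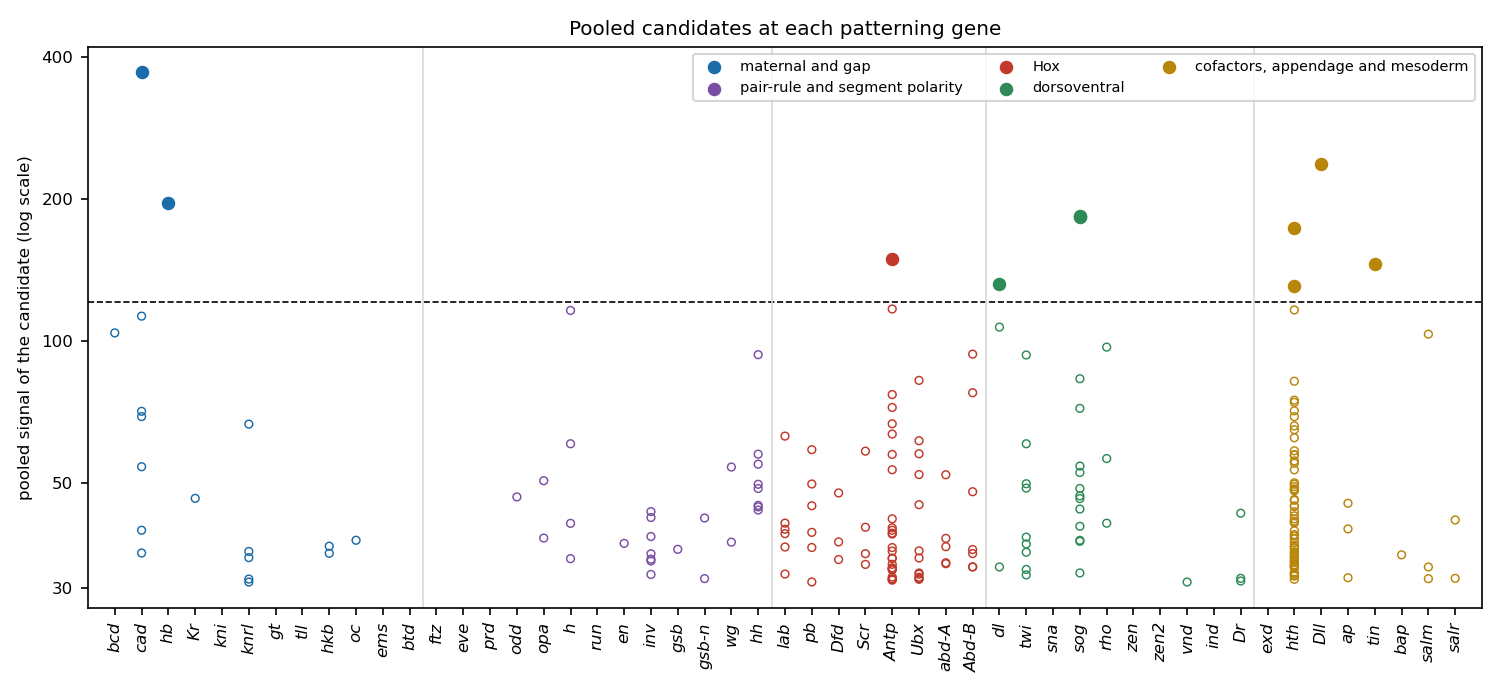
Pooled signal (log axis) of every pooled candidate at each of the 51 patterning genes, grouped by class. Filled points are thresholded peaks, open points are other candidates, and the dashed line is the weakest thresholded signal, 121. The 2 filled points of sog overlap, and 14 genes have no candidate.

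The span of a gene sets how many summits it can hold, and patterning genes range from 1.00 kb (zen2) to 132 kb (hth). Among the 14 with spans over 20 kb, 4 (28.6%) had a thresholded summit, against 41.2% of all protein-coding genes of that length. Among the 15 of 5 to 20 kb, 3 (20%) had one, against 28.7%. Among the 22 under 5 kb, 1 (4.55%) had one, tin, against 11.5%. The share of patterning genes was the smaller in each length class, but it rests on 1 to 4 genes in each. At promoters alone, 4 of 51 had a thresholded summit (7.84%), against 12.7% of all protein-coding genes. Of the 27 with a pooled candidate at a TSS, these 4 made up 14.8%, against 26.6% of all such genes.

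**Figure D2:**
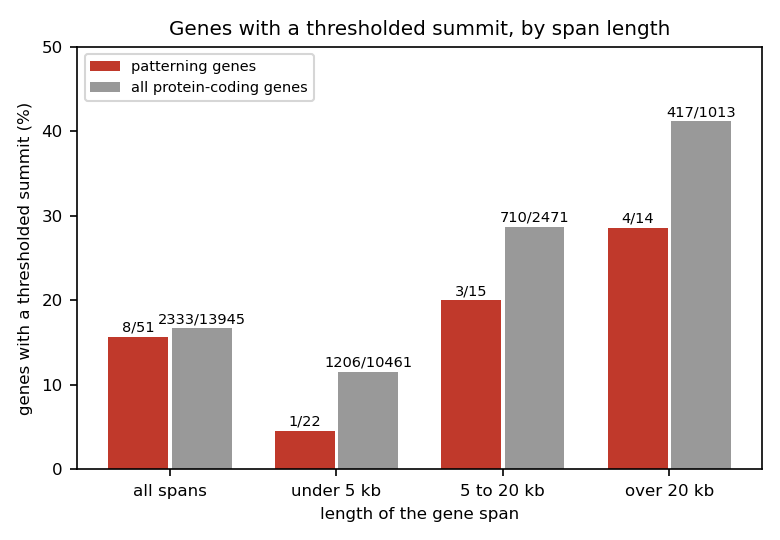
Percentage of genes marked by a thresholded summit in the span or promoter window, for patterning genes and for all protein-coding genes, over all spans and in 3 classes of span length. Numbers above the bars are genes with a summit over genes counted. Patterning genes stand at 15.7% against 16.7% over all spans, and below the other bar in each length class.

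Maternal and gap genes held the strongest site of all. cad encodes a homeodomain protein whose gradient patterns the posterior. Its summit lay in an intron (2L, 20780960), 10066 bp from its nearest own TSS, with signals of 127 in replicate 1 and 246 in replicate 2. It ranked 327 and 455 of the 30000 candidates of the replicates. The nearest TSS of any gene was that of Pomp, 6696 bp away. The promoter of cad had a candidate below the threshold, 129 bp from the TSS, with a pooled signal of 113 and a replicate 2 signal of 80.5, and replicate 1 had none within 200 bp.

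hb encodes a zinc finger protein that acts as maternal and gap factor. Its summit (3R, 8694324) lay in an intron 276 bp downstream of an internal TSS and 3498 bp from the 5′ end of the gene. The peak was narrow, at 103 bp, with a pooled signal of 196 and signals of 60.2 in replicate 1 and 136 in replicate 2. Its ranks in the replicates, 1412 and 1314, were close, and it was the sole pooled candidate at hb.

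None of the other 10 maternal and gap genes had a thresholded summit. bcd, the anterior morphogen, came nearest with a promoter candidate of signal 104 (238 bp from the TSS, replicate signals 45.6 and 56.7). It was among the 2790 strongest of replicate 1, at rank 2283, but ranked 6142 in replicate 2. The strongest pooled candidates were 66.6 at knrl, a relative of kni, and 46.4 at the gap gene Kr. Those of oc, a head gap gene, and hkb, a terminal gap gene, lay between 36.7 and 37.8. kni, gt, tll, ems and btd had no pooled candidate. kni, tll and btd each had 1 weak candidate in replicate 1 alone (signals 13.7 to 16.2), and gt and ems had none in any list.

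Pair-rule and segment polarity genes stayed below the threshold throughout, including the segment polarity signals wg and hh. The pair-rule repressor h came nearest, with 4 pooled candidates, the strongest at the promoter 6 bp from the TSS (signal 116, rank 2988 of 30000). Within 200 bp of it lay candidates of signal 67.1 in replicate 1 and 60.7 in replicate 2. The same replicate 1 candidate, with its summit at 8675963, lay closer to a second pooled candidate at 8675970 (signal 60.5). A thresholded peak lay just beyond the promoter window of h, 561 bp upstream of its nearest TSS (3L, 8675016 to 8675379, signal 127). That peak had a replicate 2 signal of 109, at rank 1956, and no replicate 1 candidate within 200 bp. h was the only one of these 13 genes that a wider window of 1000 bp, or any overlap of the peak interval, brought in.

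hh, the Hedgehog signal, held 8 pooled candidates, the strongest in an intron (signal 93.5), with 14.3 in replicate 1 and 76.9 in replicate 2. wg, the Wnt signal, held 2 (strongest 54.0). The strongest candidates of the pair-rule genes opa and odd and of the segment polarity genes en, inv, gsb and gsb-n lay between 36.2 and 50.5. eve and ftz had candidates in replicate 1 alone (strongest signals 15.1 and 16.6), and prd and run had none in any list.

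All 8 Hox genes held pooled candidates, and Antp alone had a thresholded one. Antp specifies the second thoracic segment. Its summit (3R, 6914561, signal 149) lay in an intron, 84667 bp from the 5′ end and 18279 bp from the nearest Antp TSS. The position is also inside the span of CG46458, a gene that overlaps Antp. The nearest TSS was that of lncRNA:CR43252, 9879 bp away. Replicates 1 and 2 had signals of 45.9 and 90.9 there, at ranks 2266 and 2653. In the same intron, at 6912528, a candidate of signal 117 fell just below the threshold, with 77.3 in replicate 2 and none in replicate 1 within 200 bp. Just beyond that distance, at 6912760, replicate 1 had a candidate of signal 58.2 at rank 1496. A separate pooled candidate of signal 76.9 lay there.

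The strongest candidates of the other Hox genes were 93.7 at Abd-B and 82.4 at Ubx, which pattern the abdomen and posterior thorax, and 62.8 at lab, which acts in the head. Those of pb, Scr, abd-A and Dfd were 47.6 to 58.8. Hox genes held 69 pooled candidates, mostly outside promoter windows. Promoter candidates were found at 4 of the 8, lab, pb, Dfd and Antp, with 1 at each. They were found at 27 of all 51 patterning genes and at 6674 of the 13945 protein-coding genes. Abd-B and lab each held a site among the 2790 strongest of replicate 1 (ranks 1472 and 2212). The replicate 2 ranks of the same sites were 12006 and 10551.

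Seen over whole complexes, thresholded sites were sparse around the Hox genes. From lab to Antp, the Antennapedia complex spans 338 kb (3R, 6661427 to 6999228) and held 1 thresholded summit, that of Antp, and 80 pooled candidates. The bithorax complex, from Ubx to Abd-B, spans 316 kb (16656623 to 16972236) and held 1 thresholded summit and 63 pooled candidates. That summit, at 16798859, lay outside any annotated gene, between Ubx and abd-A and 1741 bp from lncRNA:CR45750. It had a pooled signal of 239 and replicate signals of 88.5 and 146, all higher than at the Antp site. Per 100 kb there were 0.296 and 0.317 thresholded summits in the 2 complexes, against 2.08 over all arms. Pooled candidates stood at 23.7 and 19.96 per 100 kb, against 22.4.

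Among dorsoventral genes, sog and dl had thresholded summits. sog encodes an extracellular inhibitor of Dpp signalling and held 2, both in introns and 3481 and 7003 bp downstream of its nearest TSS (X, 15623059 and 15619537). Their pooled signals were nearly equal, 183 and 184, and so were their signals within each replicate. They were 44.6 and 46.1 in replicate 1, and 139 and 142 in replicate 2. Both sites were among the 2790 strongest of each replicate. sog held 12 further pooled candidates, the strongest 83.1 at a promoter.

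dl encodes the Rel-family factor of the ventral gradient. Its summit (2L, 17450292, signal 132) lay 72 bp downstream of a TSS in the 5′ UTR. It had the lowest rank of the 10 in each replicate, with signals of 19.1 at rank 12722 in replicate 1 and 68.1 at rank 4406 in replicate 2. Replicate 2 had a stronger candidate in the same promoter window, with a signal of 90.4 at rank 2676, and the replicate 1 candidate nearest to that one ranked 4270. A further thresholded peak, with a signal of 142, lay 677 bp upstream of dl and nearer to lncRNA:CR46204.

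The other 8 dorsoventral genes had no thresholded summit. rho, which releases EGF receptor ligands, reached 97.0 at its promoter 52 bp from a TSS, with replicate signals of 40.7 and 62.4. twi, a mesoderm determinant, reached 93.3, in a span annotated at 63.0 kb, but that summit was 13471 bp from the nearest twi TSS and 39 bp from that of CG9896. At the twi promoter itself, 12 bp from the TSS, the candidate had a signal of 60.5. The neural column genes Dr and vnd reached 43.1 and 30.8, and that of vnd was near the weakest of the 30000 pooled candidates (30.7). sna, the other mesoderm determinant, had a candidate in replicate 1 alone (rank 24412). zen, zen2 and ind had none in any list.

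Among cofactor, appendage and mesoderm genes, Dll, hth and tin had thresholded summits. Dll, the selector of limb development, had the strongest promoter peak of all patterning genes (2R, summit 24814710, signal 237, 112 bp upstream of the TSS). Its replicates differed in rank, with a signal of 37.4 at rank 3256 in replicate 1 and 218 at rank 581 in replicate 2. tin, required for the heart, went the other way. Its summit 199 bp upstream of the TSS (3R, 21378778, pooled signal 146) had a signal of 76.1 at rank 885 in replicate 1 and 72.3 at rank 3977 in replicate 2.

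hth encodes a homeodomain partner of the Hox proteins and held 2 intronic summits, of signal 174 (3R, 10597790) and 131 (10564422), 16486 and 49854 bp from its nearest TSS. The stronger was in the top 2790 of both replicates (ranks 1095 and 2051), and the weaker in that of replicate 2 alone (ranks 4930 and 2324). A further 58 pooled candidates lay at hth. One of them, with a signal of 116, was among the 2790 strongest of replicate 2 but below the threshold. exd, the other Hox partner, had 2 weak candidates in replicate 1 (strongest 15.3) and none in the other lists. salm, a zinc finger gene, had a promoter candidate of 103, 24 bp from the TSS, its relative salr 41.7, the wing selector ap 45.3 and the visceral mesoderm gene bap 35.2.

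**Figure D3:**
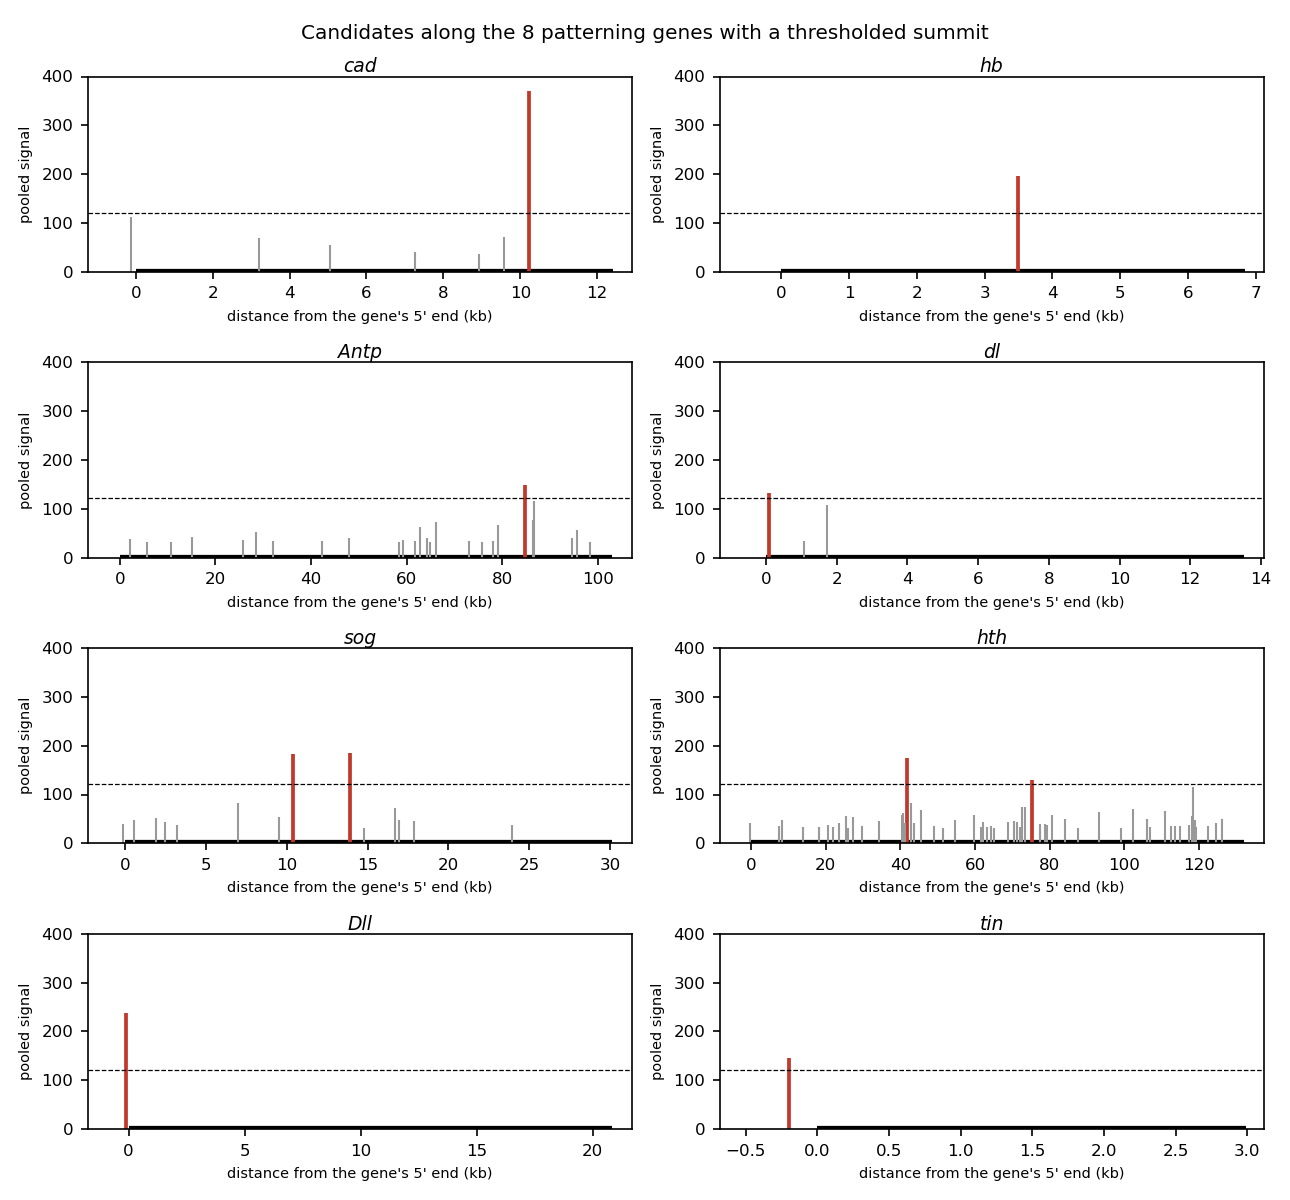
Pooled candidates along the 8 patterning genes with a thresholded summit, by distance from the 5′ end of the gene in kb. Bar height is pooled signal, red bars are thresholded peaks, grey bars other candidates, the black bar the gene and the dashed line the weakest thresholded signal. Dll, tin and dl are marked at the 5′ end, hb at an internal TSS, and cad, Antp, sog and hth inside introns.

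All 10 summits had a candidate within 200 bp in both replicates. In each replicate's own list, 7 of the 10 ranked among the strongest 2790 of replicate 1 and 8 among those of replicate 2, and 6 did so in both: the sites of cad, hb, sog, Antp and the stronger one of hth. Dll and the weaker hth site ranked so in replicate 2 alone, tin in replicate 1 alone, and dl in neither by its nearest candidate. The thresholded set was made from lists to which both replicates contributed, so this agreement is not independent of how it was chosen. The same counts over all 2790 thresholded summits are not given here. Whether such agreement is usual for the set therefore cannot be told.

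**Figure D4:**
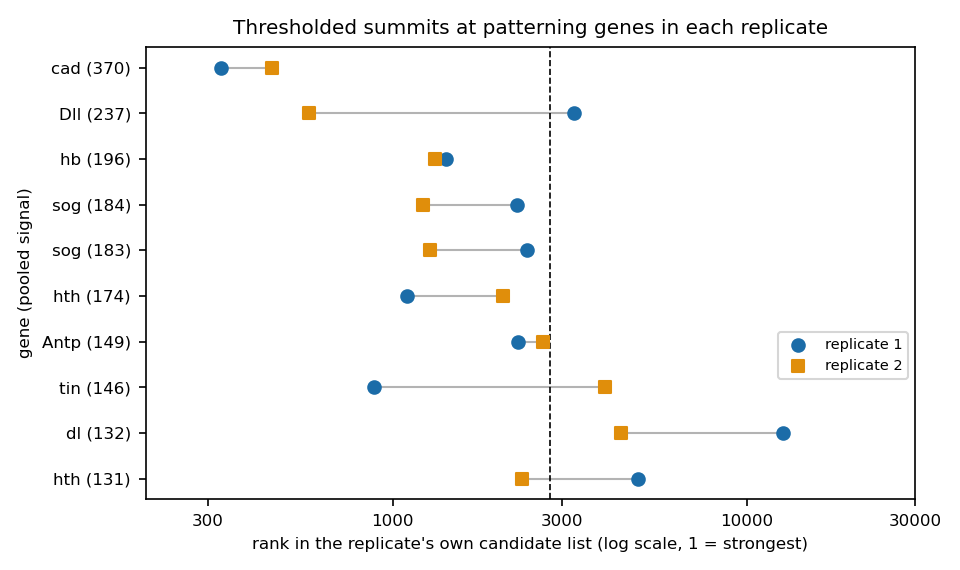
Rank of the nearest candidate within 200 bp in each replicate's list of 30000 (log axis, 1 is strongest) for the 10 thresholded summits, ordered by pooled signal. The dashed line is rank 2790. The site of cad ranks highest in both replicates, and tin and Dll lie on opposite sides of the line in the 2 replicates.

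Taking each replicate alone gave overlapping but unequal gene sets. Among the 2790 strongest of replicate 1 were sites at 10 of the 51 genes (19.6%, against 16.9% of all protein-coding genes), namely bcd, cad, hb, h, lab, Antp, Abd-B, sog, hth and tin. Among those of replicate 2 were sites at 7 (13.7%, against 16.2%), namely cad, hb, Antp, dl, sog, hth and Dll. The 5 genes in both were cad, hb, Antp, sog and hth. Of the 14 strong replicate 1 summits, 7 had a thresholded summit within 200 bp, and of the 10 strong replicate 2 summits, 9 did. The matching shares over all 2790 strongest sites of each replicate are not given here. Mean GC content was 35.9% ± 7.70 (SD, 14 summits) under the first and 42.7% ± 9.82 (SD, 10 summits) under the second. Over all 2790 strongest sites it was 35.5% in replicate 1 and 40.0% in replicate 2.

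The replicates differed in how many candidates fell at patterning genes. Both lists hold 30000 entries. Replicate 1 had 337 at the 51 genes and replicate 2 had 167, with 219 in the pooled list. Inside the spans alone, without promoter windows beyond them, lay 324 and 152. Per 100 kb of span these were 36.5 in replicate 1 and 17.1 in replicate 2, against 22.2 and 24.0 in the spans of all protein-coding genes. More candidates in replicate 1 were found at 35 of the 51 genes and more in replicate 2 at 6. Over all protein-coding genes, more in replicate 1 were found at 21.7% and more in replicate 2 at 31.6%.

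Each class had more candidates in replicate 1. Hox genes had 125 and 46 candidates in replicates 1 and 2, with more in replicate 1 at all 8. Antp had 44 and 20, Ubx 22 and 9, and Scr 10 and 1. Maternal and gap genes had 31 and 14, pair-rule and segment polarity genes 38 and 27, dorsoventral genes 36 and 31, and the cofactor, appendage and mesoderm genes 107 and 49. Without hth and Antp, the other 49 genes had 211 and 105. All 14 patterning genes over 20 kb had more in replicate 1, against 44.7% of the 1013 protein-coding genes of that length. The 6 genes that went the other way were cad (4 in replicate 1 and 8 in replicate 2), hh (7 and 10), dl (3 and 6), h (3 and 4), en (1 and 2) and wg (1 and 2).

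These candidates were mostly weak. The median signal of the 337 was 16.8, near the lowest of the list (12.5), against 17.7 for all of replicate 1. The median of the 167 was 31.9, against 34.4 for all of replicate 2. Of the 337, 74 (22.0%) had a replicate 2 candidate within 200 bp, against 37.2% over the list. Of the 167, 75 (44.9%) had a replicate 1 candidate, against 37.3%. The number shared was nearly the same in both directions. The contrast between the 2 shares thus restates the unequal counts of 337 and 167 and is not a separate result. Mean GC content was 42.1% ± 8.50 (SD) under the 337 and 46.7% ± 8.10 under the 167, against 39.7% and 44.6% over the whole lists. GC content thus differed between the replicates in the same way at patterning genes and elsewhere, and its part in the candidate counts was not tested.

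**Figure D5:**
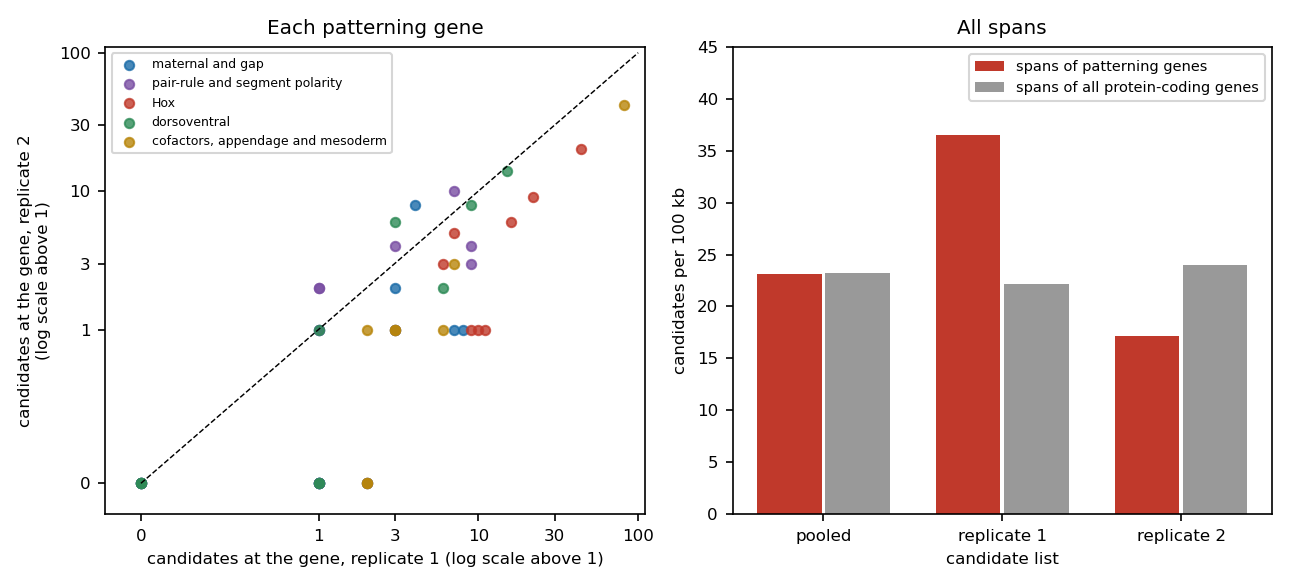
Left, candidates at each of the 51 patterning genes in replicate 1 (x) and replicate 2 (y), both on scales that are logarithmic above 1, with the line of equality dashed and some points on top of each other. Right, candidates per 100 kb of span for patterning genes and for all protein-coding genes in each list. Most genes lie below the line, and patterning genes stand at 36.5 in replicate 1 and 17.1 in replicate 2.

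Pooled candidates were found at 37 of the 51 genes (72.5%, against 57.0% of all protein-coding genes). The 205 inside the spans stood at 23.1 per 100 kb, against 23.2 in the spans of all protein-coding genes. By span length the densities were 16.1 against 20.1 under 5 kb and 22.3 against 29.1 at 5 to 20 kb. Over 20 kb the density at patterning genes was the higher, 23.9 against 21.6. A smaller part of the pooled candidates at patterning genes reached the thresholded set, 10 of 219 (4.57%), against 10.3% of the 23532 candidates at protein-coding genes. Of the 219, 164 lay in introns (74.9%), 34 in promoter windows at 27 genes, 12 in coding exons, 5 in 5′ UTRs and 4 in 3′ UTRs. Median signal was 50.1 for the 34 at promoters and 39.6 for the 164 in introns. Of the 219, 63.9% had a replicate 1 candidate within 200 bp and 58.0% a replicate 2 candidate, against 53.7% and 76.8% of all pooled candidates.

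The 43 unmarked genes mostly lay far from thresholded sites. The median distance from their nearest TSS to a thresholded summit was 50.2 kb, against 16.4 kb for the 11612 protein-coding genes with no summit at the gene. Several of the 43 are neighbours, as in the Antennapedia complex, so their distances are not independent of each other. The shortest distances were 0.561 kb at h, 6.45 kb at btd and 8.92 kb at Abd-B, and the longest 247 kb at ap. zen and zen2 in the Antennapedia complex lay 160367 and 170425 bp away.

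Genes with and without a homeodomain, were set side by side, a division made after the data were seen. Of the 30 that encode a homeodomain protein 5 had a thresholded summit (cad, Antp, hth, Dll and tin), and of the other 21 there were 3 (hb, dl and sog). Over all protein-coding genes the share was 16.7%. The median span was 11.3 kb for the homeodomain genes and 6.65 kb for the others. The strongest pooled candidate per gene had a median signal of 55.2 in the 22 homeodomain genes with a candidate and 93.3 in the 15 others with one. The same median over all protein-coding genes is not given here.

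Other genes of the same pathways, a separate list of 67, had thresholded summits at 17 (25.4%, against the 16.7% of all protein-coding genes). The dorsoventral genes among them had 8 of 27, pair-rule and segment polarity genes 4 of 14, Hox partners and regulators 2 of 8 and maternal and gap genes 3 of 18. At promoters alone, 8 of the 67 had a summit, against 12.7% of all protein-coding genes. The 67 were not split by span length. Over all protein-coding genes the share rose from 11.5% under 5 kb to 41.2% over 20 kb. Among the 67, the corepressor gene gro had the strongest summit, at its promoter (signal 530, replicate signals 88.0 and 428). Then came the muscle regulator Mef2 (503, outside its promoter windows), cact, the inhibitor of dl (311, promoter), and the repressor cic of terminal patterning (307). The midline regulator sim had 281, the head gene cnc 268, the Hedgehog receptor ptc 232 and the Frizzled receptor fz 204. At the 51 genes, only the summits of cad and Dll passed 200.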

How the data were processed

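Peak lists of schlank ChIP-seq were used, on assembly dm6 per the labels: 1 candidate list of 30000 entries per replicate, 1 for both pooled, and the optimal IDR set of 2790 peaks, per the deposited file lists. Chromatin was sonicated to 200 to 800 bp, per the labels. The aligner, peak caller and IDR cutoff were each not given in the sources used here, and the controls were not used here. The deposited signal is the authors' peak strength on an unstated scale. It was used only within a list. The deposited −log10 q values have a ceiling, at 3.57 for 1870 thresholded peaks, and were not used.

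Genes and TSSs came from Ensembl release 115 (BDGP6.54), transposable elements left out. All 51 symbols matched, h as its newer symbol hry. Sequence came from the NCBI Release 6 assembly. Summits within 200 bp counted as shared. The members, lists and classes were chosen with earlier results of these data known, so no test of the list was made. The counting was checked on 200 planted peaks. The 2 replicates, numbered by the labels, are from separate biosamples per the labels. The genes named were every one with a thresholded summit, the strongest candidates per class, the genes with none, and up to 8 of the other patterning genes. The homeodomain split and the remarks on h, the bithorax site, distances and replicate counts were chosen after the values were seen. Tables were handled with pandas 2.3.3 and numpy 2.4.6 under Python 3.11.15, intervals came from scipy 1.17.1, and plots from matplotlib 3.10.9.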

Additional observations from a re-analysis of the deposited data

How the results depend on the processing

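With the stronger 50% of thresholded peaks, the counts fell to 4 genes (cad, hb, sog and Dll), 4 summits and 2 genes marked at a promoter, with 0 Hox, 1 dorsoventral and 1 cofactor, appendage or mesoderm gene, and 9.67% of all protein-coding genes had a summit. A promoter window of 1000 bp, and any overlap of the peak interval, each brought in h, which gave 1 pair-rule or segment polarity gene, 9 of 51 genes and 12 summits. Over all protein-coding genes the share with a summit was then 18.0% and 17.6%, against 16.7% as reported, so the background rose too. Without replicate 1 or without replicate 2, the genes with a strong site numbered 7 to 10, the summits 10 to 14 and the genes with one at a promoter 3 to 4. By class they numbered 2 to 3 for maternal and gap genes, 0 to 1 for pair-rule and segment polarity genes, 1 to 3 for Hox genes, 1 to 2 for dorsoventral genes and 2 for the cofactor, appendage and mesoderm genes. Counting only summits whose nearest TSS belonged to the gene left 6 genes and 8 summits, without cad and Antp. With candidates at or above the median pooled signal, 27 genes had a pooled candidate. For these last 2 settings the share of all protein-coding genes was not worked out. Within 50 bp of the summit, TAATTA had no match (0%) and TTTATG lay under 40.0%. No paired analysis was possible because the 2 replicates form 1 group. Depth is unknown, so no value could be weighed by it.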
